A study of Mus musculus with 6 samples.

Results

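Fatty acids in microglia can be stored as triglyceride in lipid droplets, released again by lipases, or carried through the cytosol by small binding proteins. The 10 genes described here cover these steps. Plin2 and Plin3 encode perilipins that coat droplets, Dgat1 and Dgat2 encode the enzymes of the last step of triglyceride synthesis, and Pnpla2 and Lipe encode the lipases that remove the first and the second fatty acid. Hilpda encodes an inhibitor of the first of these lipases, and Fabp3, Fabp4 and Fabp5 encode fatty acid binding proteins. They were selected by symbol from the 41079 genes listed in the RNA-seq tables of 3 control and 3 optimized cultures of mouse microglia, and all 10 had enough counts to be tested.

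Droplets are dynamic organelles in which a core of neutral lipid is enclosed by a phospholipid monolayer carrying perilipins. Plin2 protein is known to be stabilised by lipid and is widely used as a droplet marker, and microglia laden with droplets have been described in aged and inflamed brain. Lipolysis runs in steps, from triglyceride to diacylglycerol to monoacylglycerol, and fatty acid binding proteins hand the products to other compartments, among them the nucleus, where lipid-sensing receptors of the PPAR family reside. The measurements are of RNA, so none of them gives the amount of lipid, droplet or protein.

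The microglia came from neonatal C57Bl/6N mice 1 to 3 days old, whose brains were pooled, and were shaken off mixed glial cultures fed medium with 20% conditioned medium of L-929 cells, a fibroblast line that secretes growth factors for macrophages. Control cultures were kept in serum-free DMEM/F12. Optimized cultures received TGFbeta, IL34 and CX3CL1 at 100 ng/mL each by the labels, and the study's methods add cholesterol, insulin-transferrin-selenium and a collagen IV coating, so the effects of these supplements cannot be told apart. The study describes the 3 libraries of a condition as biological replicates, and the labels do not say whether they came from separate isolations, so the p-values measure the spread between these libraries. In bulk RNA, fewer cells of a type and less RNA per cell cannot be told apart.

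The libraries held between 20628148 and 27261839 counts. Of the 9 microglia markers examined, 8 were listed, and their summed level was 7977 to 8606 CPM (counts scaled to the library total with TMM factors) in control and 12440 to 15940 CPM in optimized libraries. Adipocyte markers, relevant because Fabp4 and Lipe are best known from fat cells, summed to at most 0.131 CPM in control and 0.341 CPM in optimized libraries, and 3 of the 6, Lep, Cfd and Cidec, had no count in any library. Endothelial markers, relevant because endothelium also expresses Fabp4, summed to 81.5 to 97.1 CPM in control and 274 to 352 CPM in optimized libraries, nearly all of it Flt1 (83.0 and 298 CPM), while Cldn5 was at 0 in every control library. Summed levels were 28.5 to 31.4 and 20.5 to 22.2 CPM for 6 astrocyte markers, 21.3 to 27.8 and 22.0 to 78.8 CPM for 5 fibroblast markers, 96.8 to 101.9 and 114 to 142.5 CPM for 4 oligodendrocyte markers, and 2.05 to 3.32 and 3.93 to 4.26 CPM for 4 neuron markers, in control and optimized libraries respectively. The astrocyte sum followed Aldh1l1 (16.5 and 4.64 CPM), while Gfap, Gja1, S100b, Aqp4 and Slc1a2 were not called. The highest fibroblast sum was that of optimized library 3, with Col1a1 at 31.5 and Col1a2 at 31.6 CPM. In optimized libraries 1 and 2, Col1a1 measured 11.65 and 8.77 CPM and Col1a2 13.1 and 7.2 CPM. Col1a1, Col1a2, Dcn, Lum and Pdgfra were not called. Most of the oligodendrocyte sum was Mbp (94.2 and 119 CPM, called higher), while Olig2, Sox10 and Mog were not called. Among the neuron markers Nefl was called higher (0.227 and 1.14 CPM), Rbfox3 and Map2 were not called and Snap25 was not tested. The part of these cell types in the results was not tested.

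Of the 10 genes, Fabp4 and Lipe fell and Dgat1 rose under the optimized conditions at an adjusted p under 0.05 in edgeR's quasi-likelihood test. The 3 changed genes are 30% of the 10, and over all 14618 genes tested 29.8% changed, 14.7% being higher and 15.2% lower. In 5 of the 10 genes the 3 optimized libraries lay entirely above (Plin2, Dgat1, Hilpda) or entirely below (Lipe, Fabp4) the 3 control libraries, and over all genes tested this held for 43.9%. Both shares lie near those of all genes. The median log2 fold change was 0.10 over the 10 genes and 0.01 over all genes tested.

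**Figure D1:**
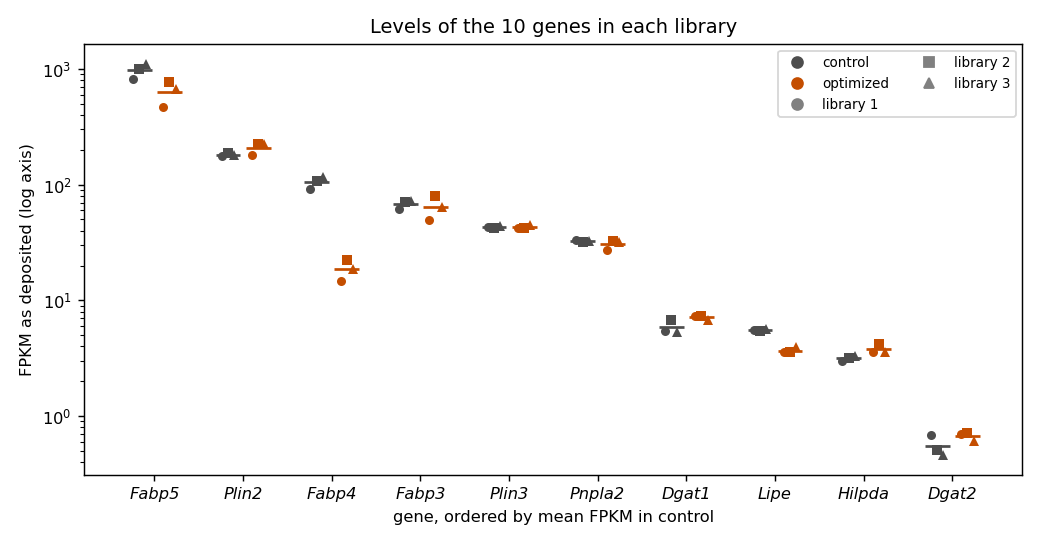
Levels of the 10 genes in each library as deposited FPKM on a log axis, ordered by the control mean, with control and optimized libraries in 2 colours, libraries 1, 2 and 3 as circles, squares and triangles, and a bar at each mean. Fabp4 shows the widest separation, from a mean of 105 FPKM in control to 18.6 FPKM in optimized libraries, while Fabp3, Pnpla2 and Plin3 overlap.

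**Figure D2:**
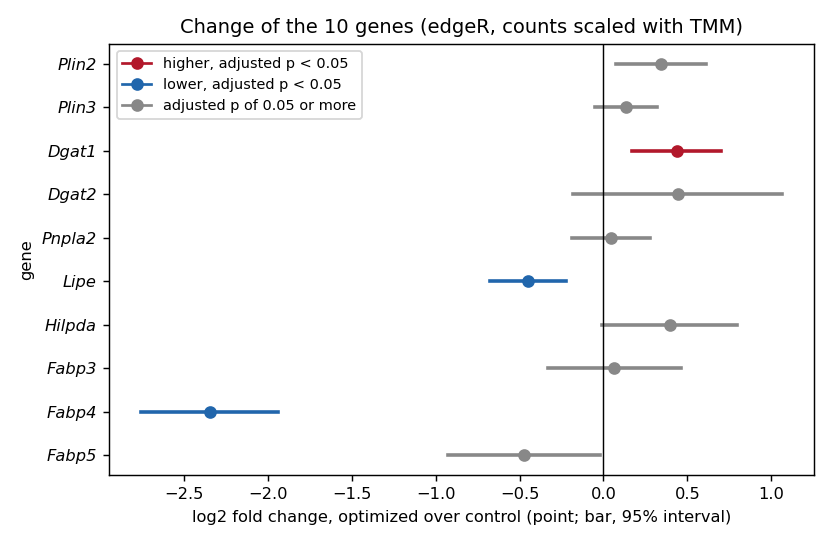
Log2 fold change, optimized against control, of each of the 10 genes from edgeR's fit, as a point with its 95% interval as a bar, coloured by whether the adjusted p was under 0.05. Fabp4 stands at -2.35, and the other 9 lie between -0.48 and 0.44.

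Compared per length, as FPKM (fragments scaled to transcript length and library size), Fabp5 and Plin2 were the most abundant of the 10 genes in both conditions. Fabp5 had a mean of 981 ± 147 FPKM (SD, n = 3) in control and 638 ± 156 FPKM in optimized libraries, and Plin2 had 182 ± 5.73 and 209 ± 25.3 FPKM. By mean FPKM over all 6 libraries, Fabp5 ranked 55 and Plin2 277 among the 14618 genes tested. In control libraries the order then ran through Fabp4 (105 ± 12.6 FPKM), Fabp3 (67.9 ± 5.65), Plin3 (43.2 ± 0.694) and Pnpla2 (32.7 ± 0.709) to Dgat1 (5.84 ± 0.812), Lipe (5.53 ± 0.145), Hilpda (3.16 ± 0.166) and Dgat2 (0.551 ± 0.118). Neighbours in this order had ranges that did not touch, except Dgat1 and Lipe, which overlapped.

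Under the optimized conditions the order changed at the place of Fabp4, which dropped from the third to the sixth level, below Fabp3 (64.1 ± 14.9 FPKM), Plin3 (43.1 ± 1.27) and Pnpla2 (30.7 ± 2.83), at 18.6 ± 3.99 FPKM. Dgat1 followed at 7.16 ± 0.383 FPKM, then Hilpda at 3.77 ± 0.340 and Lipe at 3.68 ± 0.231 FPKM, whose libraries overlapped, and Dgat2 at 0.673 ± 0.0613 FPKM. In both conditions Dgat1, Dgat2, Lipe and Hilpda were thus below the perilipins, the binding proteins and Pnpla2.

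Plin2, the perilipin that sits on droplets in most cell types, lies on chromosome 4 of GRCm39 from 86565912 to 86588459 on the minus strand. A 30-base stretch upstream of its RefSeq start is shown because it holds AGGTCA, the motif that nuclear receptors such as the PPARs bind in repeats. The stretch spans chr4:86588497-86588526, is read on the minus strand, and carries the site in its reverse complement form in capitals.
Plin2: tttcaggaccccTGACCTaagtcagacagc
The site begins 218 bases before the start. Promoter windows of 250 bases before the RefSeq start were found for 6 of the 10 genes (Plin2, Plin3, Pnpla2, Lipe, Hilpda and Fabp3), and AGGTCA, searched on both strands, occurred in 1 of these 6 and in 14% of 32851 windows genome-wide. The match is a description of letters and not a binding site.

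Plin2 measured 706, 746 and 762 CPM in control libraries 1 to 3 and 776, 1048 and 985 CPM in optimized libraries 1 to 3. Every optimized library lay above every control library, but optimized library 1 stood close to the control range while the other 2 lay well above it. The means were 738 ± 28.6 and 936.5 ± 142 CPM, a 1.27-fold difference (log2 0.34, SE 0.12, 95% interval 0.07 to 0.61) that missed the threshold with an adjusted p of 0.057 in edgeR. Without optimized library 1 the log2 difference was 0.46 with an adjusted p of 0.00051, and DESeq2 on all libraries gave 0.023, within a range of 0.00051 to 0.23 over the 15 alternative settings. In FPKM the libraries of the 2 conditions overlapped, with 177 to 188 in control and 179.5 to 223 in optimized libraries. A listed non-coding gene, Gm12551, matches 506 bases of the Plin2 transcript at 96.4% identity, but averaged 44.2 counts against 19438.7 for Plin2.

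Plin3, a perilipin that moves between cytosol and nascent droplets (chromosome 17, 56584218 to 56599873), measured 90.4, 88.2 and 97.3 CPM in control and 95.7, 104 and 103 CPM in optimized libraries. The ranges overlapped, since control library 3 was above optimized library 1. The log2 difference of 0.13 (SE 0.08, 95% interval -0.05 to 0.32) had an adjusted p of 0.27 in edgeR, and was 0.00 with library size as the only scaling and -0.01 in limma on log2(FPKM + 1). The ratio of Plin2 to Plin3 counts within a library, which no scaling affects, was 7.81, 8.46 and 7.83 in control and 8.12, 10.1 and 9.59 in optimized libraries. These ratios overlapped, and their log2 means differed by 0.20 (two-sided exact permutation p = 0.2, adjusted over 6 ratios 0.24, where 3 libraries against 3 can give no p below 0.1).

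Dgat1 (chromosome 15, 76385083 to 76396476) encodes the acyltransferase that also esterifies fatty acids taken up from outside the cell. Its levels were 14.1, 17.4 and 14.5 CPM in control and 20.6, 22.4 and 19.2 CPM in optimized libraries. All 3 optimized libraries were higher than all 3 control libraries, with control library 2 nearest to them. The means of 15.3 ± 1.79 and 20.7 ± 1.65 CPM gave a 1.35-fold rise (log2 0.44, SE 0.12, adjusted p = 0.019 in edgeR).

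The call for Dgat1 was the least stable of the 3. It was lost without control library 1 (adjusted p = 0.088), control library 3 (0.087) or optimized library 2 (0.055), with library size as the only scaling (0.095) and in limma on log2(FPKM + 1) (0.11), while the log2 difference was positive, 0.26 to 0.53, in all 15 alternatives, whose adjusted p in edgeR, DESeq2 and limma ran from 0.0085 to 0.11. Exons of Dgat1 share 2486 bases with exons of Hsf1, a heat shock transcription factor gene on the opposite strand. Whether the counting used strand is not given in the sources used here, so reads of the overlap could belong to either gene. Hsf1 measured 29.7 ± 2.72 and 29.3 ± 1.95 CPM, a log2 difference of -0.02 with an adjusted p of 0.91 in edgeR.

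Dgat2, an acyltransferase that works mainly on fatty acids made within the cell (chromosome 7, 98802491 to 98831991), had few reads, with 34, 27 and 29 counts in control and 35, 43 and 30 counts in optimized libraries. Scaled, these were 1.49, 1.10 and 1.06 CPM and 1.66, 1.83 and 1.45 CPM. Control library 1 lay just above optimized library 3, so the conditions overlapped. The log2 difference of 0.44 was as large as that of Dgat1, but its 95% interval of -0.18 to 1.07 held 0 (SE 0.28, adjusted p = 0.28 in edgeR).

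Dgat1 supplied nearly all of the counts of the pair in every library. The ratio of Dgat2 to Dgat1 counts was 0.107, 0.0645 and 0.0746 in control and 0.0815, 0.0825 and 0.0769 in optimized libraries. Control libraries spread on both sides of the optimized ones, and the log2 means differed by 0.0039 (two-sided exact permutation p = 1).

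Pnpla2 encodes adipose triglyceride lipase, which takes the first fatty acid off triglyceride (chromosome 7, 141034404 to 141040656). It measured 87.7, 83.7 and 91.4 CPM in control and 78.1, 100.8 and 92.7 CPM in optimized libraries. The control libraries lay inside the optimized range. The log2 difference was 0.05 (SE 0.10, 95% interval -0.19 to 0.28, adjusted p = 0.78 in edgeR), and it was -0.09 with library size as the only scaling and -0.05 without optimized library 2. Merged exons of Pnpla2 share 867 bases with Gm72429, a non-coding gene on the opposite strand that is not in the count table.

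Lipe encodes hormone-sensitive lipase, which hydrolyses diacylglycerol and sterol esters (chromosome 7, 25078880 to 25098135, minus strand). It measured 23.4, 22.9 and 25.8 CPM in control and 16.4, 17.8 and 18.6 CPM in optimized libraries. No optimized library reached the lowest control library, and the libraries of each condition lay close together. The means of 24.0 ± 1.53 and 17.6 ± 1.14 CPM correspond to a 1.36-fold fall (log2 -0.45, SE 0.10, adjusted p = 0.0076 in edgeR). Lipe was called in all 15 alternatives, with log2 differences from -0.58 to -0.40 and adjusted p from 0.0015 to 0.041 in edgeR, DESeq2 and limma.

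Exons of Lipe share 1326 bases with 4732471J01Rik, a long non-coding RNA gene on the opposite strand. That gene also fell, from 15.1 ± 0.751 to 11.1 ± 1.41 CPM (log2 -0.45, SE 0.12, adjusted p = 0.02 in edgeR), by a size close to that of Lipe. Without knowledge of the strand setting the reads of the 2 genes cannot be told apart where they overlap.

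Hilpda, a small droplet protein gene known as a target of hypoxia-inducible factors (chromosome 6, 29272409 to 29276301, plus strand), had 73, 83 and 103 counts in control and 87, 123 and 88 counts in optimized libraries. Scaled, its levels were 3.19, 3.39 and 3.77 CPM and 4.12, 5.24 and 4.26 CPM. The optimized libraries all lay above the control libraries, by a narrow margin between control library 3 and optimized library 1. The 1.32-fold difference (log2 0.40, SE 0.18, 95% interval -0.01 to 0.80) did not pass, with an adjusted p of 0.13 in edgeR, and it passed in none of the 15 alternatives, whose adjusted p ran from 0.087 to 0.36 in edgeR, DESeq2 and limma.

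Both Hilpda and Lipe hold ACGTG, the core of the element bound by hypoxia-inducible factors, within 250 bases before a RefSeq start, and these stretches are shown because the roles of the genes are opposed. The stretch of Hilpda is chr6:29272570-29272599 on the plus strand, 43 bases before the start, and that of Lipe is chr7:25095549-25095578 on the minus strand, 154 bases before the start, with ACGTG in capitals.
Hilpda: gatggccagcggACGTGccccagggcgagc
Lipe: acagggacgaccACGTGagggggcggagga
Both stretches overlap exons that GENCODE M39 annotates for the same gene. The core of Lipe stands within the palindrome CACGTG, so it reads as a match on both strands. ACGTG was present in 2 of the 6 genes with a promoter window and in 16.6% of the 32851 windows. The 6 genes had 8 windows between them, and the other window of Lipe and that of Hilpda held no ACGTG. The other 2 motifs searched on both strands, CAGAC and TGACG, of which the second can share ACG with the first motif, were in 3 and 2 of the 6 genes and in 42.2% and 17.8% of all windows.

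Ratios to Pnpla2 were taken within each library for the other 2 lipolysis genes. The ratio of Lipe to Pnpla2 counts was 0.267, 0.274 and 0.282 in control and 0.210, 0.177 and 0.201 in optimized libraries. All optimized ratios were lower, and the log2 means differed by -0.49 (SD 0.04 and 0.13). The ratio of Hilpda to Pnpla2 counts, inhibitor to lipase, was 0.0366, 0.0407 and 0.0414 in control and 0.0531, 0.0522 and 0.0462 in optimized libraries, with all optimized ratios higher and a log2 difference of 0.35. Each had the smallest two-sided exact permutation p that the design allows, 0.1, or 0.15 adjusted over the 6 ratios, so neither can pass a threshold of 0.05.

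**Figure D3:**
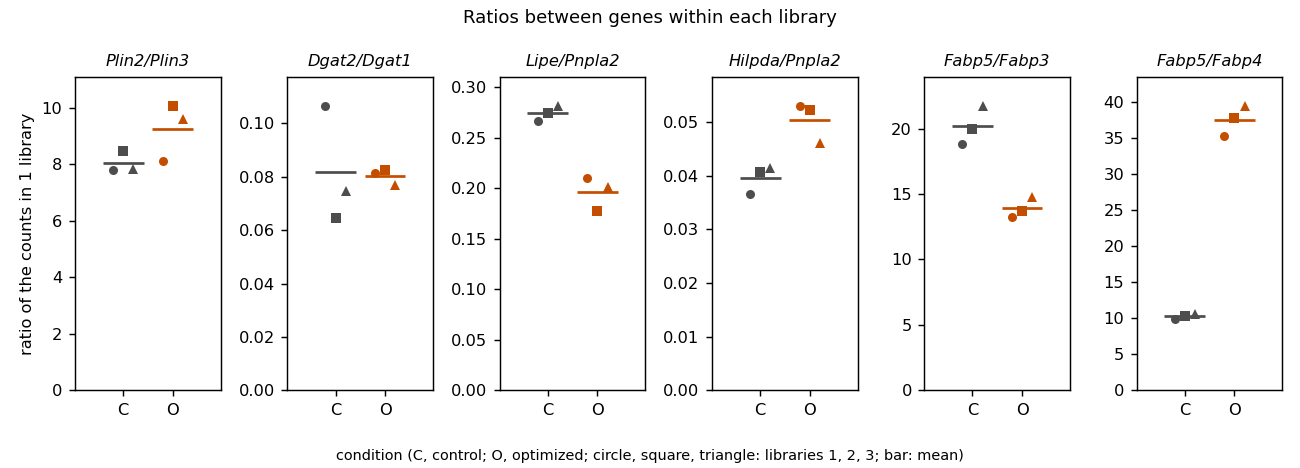
Ratios between the counts of 2 genes in the same library, 6 ratios in 6 panels, each axis starting at 0, with control (C) and optimized (O) libraries as circles, squares and triangles for libraries 1, 2 and 3 and a bar at the mean. The Fabp5 to Fabp4 ratio rises from 9.96 to 10.6 in control to 35.4 to 39.6 in optimized libraries, while the Dgat2 to Dgat1 ratio overlaps.

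Fabp4, the binding protein of adipocytes and macrophages, showed the largest change of the 10 genes. It lies on chromosome 3 from 10268785 to 10273737 on the minus strand, 187.1 kb from Fabp5 (10077602 to 10081674, plus strand), and had 1741, 2189 and 2814 counts in control and 279, 521 and 357 counts in optimized libraries. Scaled, it measured 76.1, 89.3 and 103 CPM and 13.2, 22.2 and 17.3 CPM. Every control library lay far above every optimized library. The mean fell from 89.5 ± 13.5 to 17.6 ± 4.49 CPM, 5.09-fold (log2 -2.35, SE 0.18, 95% interval -2.76 to -1.94, adjusted p = 8e-06 in edgeR).

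By fitted log2 fold change Fabp4 was the 137th lowest of the 14618 genes tested, and by the size of the change it ranked 321. It was called in all 15 alternatives, with log2 values from -2.56 to -2.18. In GENCODE M39 the merged exons of Fabp4 share 1188 bases with Gm66293, a non-coding gene on the opposite strand that is not in the count table. The deposited values imply a length of 888 bases for Fabp4, so not all of this overlap was counted, and the part counted is not known. The adipocyte markers measured beside Fabp4 were near 0 in both conditions. Of the endothelial markers, Flt1 was higher by 1.85 (log2), Pecam1, Cdh5 and Kdr were not called (log2 0.36, 0.23 and 0.26, adjusted p from 0.36 to 0.71 in edgeR), and Cldn5 and Tek had too few counts to be tested.

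Fabp5, the epidermal-type binding protein, was the most abundant of the 10. Its libraries measured 758, 921 and 1090 CPM in control and 468, 840 and 684 CPM in optimized cultures. Optimized library 2 lay above control library 1, so the conditions overlapped. The mean was 923 ± 166 and 664 ± 187 CPM, a 1.39-fold lower level (log2 -0.48, SE 0.20, 95% interval -0.93 to -0.02) that had an adjusted p of 0.11 in edgeR.

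For Fabp5 the call depended on the settings, and 5 of 15 alternatives called it. Without optimized library 2 the log2 difference was -0.69 with an adjusted p of 0.015, and with library size as the only scaling it was -0.62 with 0.021. It was also called without a filter on low counts (0.027) and in limma at a mean FPKM of at least 1 (0.044), in a range of 0.0089 to 0.31 over 15 alternatives in edgeR, DESeq2 and limma. All alternatives were negative. In GENCODE M39, 5 processed pseudogenes resemble Fabp5 at 92.9% to 97.6% identity over 336 to 409 bases, and none of them is in the count table, so reads shared with them could have been lost or kept depending on the counting.

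Fabp3, the heart-type binding protein (chromosome 4, 130202388 to 130209259), measured 40.4, 46.2 and 50.1 CPM in control and 35.3, 61.3 and 46.2 CPM in optimized libraries. The lowest and the highest of the 6 libraries were both optimized ones. Its log2 difference of 0.06 (SE 0.18, 95% interval -0.33 to 0.46, adjusted p = 0.83 in edgeR) took the other sign with library size alone (-0.08) and without optimized library 2 (-0.17). In GENCODE M39 the merged exons of Fabp3 hold 5296 bases, of which 1960 are shared with Zcchc17 on the opposite strand. Zcchc17 had a log2 difference of -0.18 and an adjusted p of 0.38 in edgeR. The deposited values imply a length of 698 bases for Fabp3, so not all of this overlap was counted, and the part counted is not known. A pseudogene that is not in the table, Fabp3-ps1, matches 426 bases at 93.7% identity. Fabp3 counts are uncertain for the pseudogene and, to an unknown extent, for the overlap.

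The 3 binding proteins moved in the same direction between libraries of the same condition. Relative to the mean of its condition on the log2(CPM + 1) scale, Fabp5 stood at -0.27, 0.01 and 0.26 in control libraries 1 to 3 and at -0.46, 0.38 and 0.08 in optimized libraries 1 to 3. Fabp4 stood at -0.22, 0.01 and 0.21 and at -0.36, 0.35 and 0.01, and Fabp3 at -0.17, 0.03 and 0.14 and at -0.39, 0.39 and -0.01. Each of the 3 was lowest in library 1 and, in the optimized condition, highest in library 2.

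Both short transcripts and some longer members deviated in the same libraries. The FPKM table implies lengths of 698, 888 and 979 bases for Fabp3, Fabp4 and Fabp5, and the median deviation of the 566 genes under 1000 bases was -0.11, -0.01 and 0.11 in control and -0.31, 0.26 and 0.05 in optimized libraries. For the 9921 longer genes it stayed between -0.02 and 0.01. Among them, Plin2 (4238 bases) stood at -0.26, 0.17 and 0.09 and Pnpla2 (2790 bases) at -0.20, 0.16 and 0.04 in optimized libraries 1 to 3, in the same order as the binding proteins. The part of transcript length in the spread of the binding proteins was not tested.

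**Figure D4:**
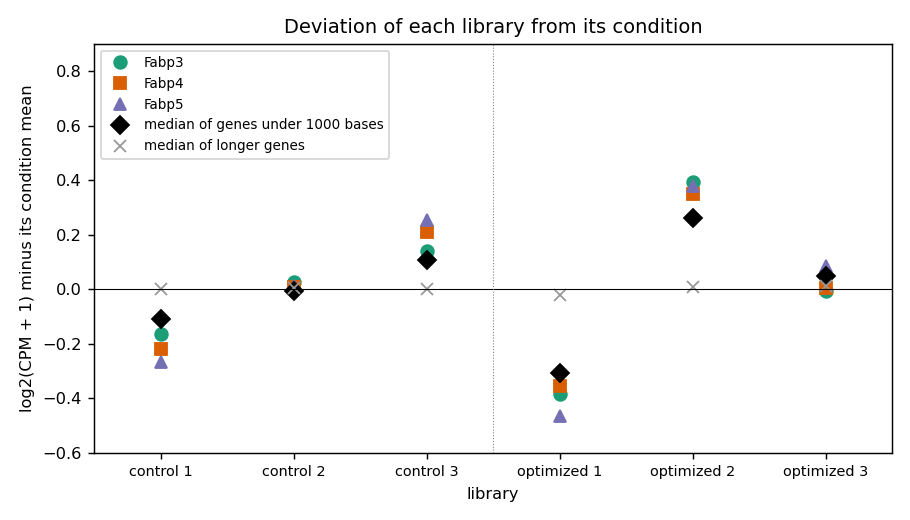
Deviation of Fabp3, Fabp4 and Fabp5 from the mean of their condition in each library, on the log2(CPM + 1) scale, with the median deviation of 566 genes under 1000 bases and of 9921 longer genes. All 3 genes and the short genes lie below 0 in library 1 of both conditions and highest in optimized library 2, while the longer genes stay near 0.

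Ratios between the binding proteins varied less within a condition. The ratio of Fabp5 to Fabp4 counts was 9.96, 10.3 and 10.6 in control and 35.4, 37.8 and 39.6 in optimized libraries. The log2 mean went from 3.36 ± 0.04 to 5.23 ± 0.08 (SD, n = 3), a difference of 1.87, larger than either SD. The ratio of Fabp5 to Fabp3 was 18.8, 20.0 and 21.8 in control and 13.2, 13.7 and 14.8 in optimized libraries, a log2 difference of -0.53 with no overlap. Each had a two-sided exact permutation p of 0.1, the smallest possible, and 0.15 adjusted over the 6 ratios. Against Fabp5, Fabp4 was lower in every optimized library than in any control library, and so was Fabp5 against Fabp3.

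The scaling bears on the small differences. TMM factors placed the median log2 fold change of all genes at 0.01, and library size alone placed it at -0.12 and moved each of the 10 genes by -0.13 to -0.14. The share of higher genes among all changed genes was 49.1% with TMM factors and 32.3% with library size alone, under which Fabp4, Lipe and Fabp5 were lower and none of the 10 was higher.

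Other members of the same families mostly had too few counts to be tested. Of 10 further perilipin and binding protein genes, 1 had enough counts to be tested, and edgeR called none at the adjusted threshold, while Fabp7 had an unadjusted p of 0.0208. Fabp7, a brain-type binding protein gene of glial precursors, measured 1.18, 1.51 and 1.61 CPM in control and 1.37, 4.51 and 3.19 CPM in optimized libraries, overlapping, with a log2 difference of 1.08 (SE 0.39, adjusted p = 0.065 in edgeR). Without optimized library 1 it was called with a log2 difference of 1.42. Plin1, the perilipin of adipocytes, had 0 counts in every control library and 6, 6 and 3 counts in the optimized libraries. DESeq2 gave an adjusted p to 2 of the 10 further genes and called Plin1 alone among them. Fabp2, Fabp9 and Fabp12 had no count in any library.

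Upstream of the acyltransferases, 7 of 14 tested genes of fatty acid activation and glycerolipid synthesis fell and none rose, with a median log2 fold change of -0.25 beside 0.01 over all genes, of which 15.2% fell and 14.7% rose. Agpat4, an acyltransferase of phosphatidic acid synthesis, fell from 10.2 ± 0.491 to 6.01 ± 0.294 CPM (log2 -0.76, SE 0.12, adjusted p = 0.0012 in edgeR). Acsl3, an acyl-CoA synthetase of nascent droplets, fell from 23.3 ± 1.58 to 14.2 ± 1.34 CPM (log2 -0.72, adjusted p = 0.00078 in edgeR), and Lpin1, a phosphatidate phosphatase gene, from 19.0 ± 0.875 to 11.6 ± 0.996 CPM (log2 -0.72, adjusted p = 0.00071 in edgeR). Acsl5, the most abundant per length, had 41.6 and 33.4 FPKM and a log2 difference of -0.18 (adjusted p = 0.18 in edgeR). The count of 7 went to 3 without control library 2 and to 4 without control library 3 or optimized library 3, while none of the 14 rose in any of these. Dgat1, which acts after these enzymes, was higher.

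Among the partners of the lipases, 2 of 6 tested genes rose and 2 fell, beside 14.7% and 15.2% of all genes, with a median of 0.11. Mgll, the monoacylglycerol lipase that takes the last fatty acid, fell 3.68-fold from 13.9 ± 0.294 to 3.79 ± 0.166 CPM (log2 -1.88, SE 0.12, adjusted p = 2.6e-06 in edgeR). Lipa, the lysosomal acid lipase, fell from 1128 ± 33.5 to 674 ± 25.2 CPM (log2 -0.74, SE 0.09, adjusted p = 0.00015 in edgeR). Abhd12, a lysophospholipid lipase gene and first of the list by mean FPKM over all 6 libraries, rose from 778 ± 27.2 to 1339 ± 180 CPM (log2 0.78, SE 0.12, adjusted p = 0.00058 in edgeR). Abhd5, the activator of adipose triglyceride lipase, rose from 50.5 ± 1.36 to 59.9 ± 3.04 CPM (log2 0.25, SE 0.08, adjusted p = 0.047 in edgeR). G0s2, an inhibitor of the same lipase, had 3 to 12 counts per library and was not tested. With library size alone Mgll, Lipa and Abhd12 kept their calls, Abhd5 lost its call, and the median of the list was -0.02.

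Droplet assembly and sterol ester genes showed 2 higher and 1 lower of 12 tested, or 25% changed beside 29.8% of all genes, with a median of -0.02. Bscl2, encoding seipin at the site where droplets form, rose from 49.9 ± 5.32 to 76.5 ± 14.3 CPM (log2 0.62, adjusted p = 0.0082 in edgeR), and Spart rose from 48.3 ± 1.88 to 59.2 ± 4.17 CPM (log2 0.30, adjusted p = 0.029 in edgeR). Soat2, a sterol acyltransferase of low level here, fell from 2.29 ± 0.603 to 0.939 ± 0.119 CPM (log2 -1.28, SE 0.30, adjusted p = 0.0092 in edgeR). Aup1, the most abundant per length, had 113 and 83.6 FPKM and an adjusted p of 0.056 in edgeR. The count of 3 dropped to 1 without control library 2 or control library 3. With library size alone 1 was higher and 2 were lower, since Spart lost its call and Aup1 was called lower, and the median was -0.14. Cidea and Cidec, fat cell droplet fusion genes, had no count in any library.

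Of 15 genes known to be induced in hypoxia, as Hilpda is, 12 rose and none fell, beside 14.7% and 15.2% of all genes, with a median log2 fold change of 0.53. Egln3, a prolyl hydroxylase gene, rose from 17.1 ± 0.941 to 115 ± 10.8 CPM (log2 2.75, SE 0.10, adjusted p = 9.3e-08 in edgeR). Bnip3, a mitophagy receptor gene, rose from 31.2 ± 3.02 to 98.1 ± 6.23 CPM (log2 1.65, adjusted p = 1.6e-06 in edgeR), and Mxi1 from 28.8 ± 1.17 to 62.9 ± 2.89 CPM (log2 1.13, adjusted p = 6.8e-06 in edgeR). Pgk1, the most abundant per length, had a log2 difference of -0.03 and an adjusted p of 0.86 in edgeR. With library size alone 9 of the 15 were higher and none was lower. Oxygen was not measured, and the 0.40 of Hilpda was below the median of this list.

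Of 8 tested genes outside the 10 that PPAR receptors are known to induce, 4 rose and 1 fell, beside 14.7% and 15.2% of all genes, with a median of 0.35. Angptl4, a secreted inhibitor of lipoprotein lipase, rose from 7.28 ± 0.937 to 25.7 ± 6.63 CPM (log2 1.82, SE 0.20, adjusted p = 7.4e-05 in edgeR). Cpt1a, the gate of mitochondrial fatty acid import, rose from 86.1 ± 1.91 to 160 ± 2.17 CPM (log2 0.90, adjusted p = 1.4e-05 in edgeR), and Acaa2 from 30.6 ± 2.36 to 47.2 ± 4.27 CPM (log2 0.62, adjusted p = 0.0011 in edgeR). Cd36, the fatty acid translocase and first of the list by mean FPKM over all 6 libraries, fell from 394 ± 14.7 to 152 ± 6.60 CPM (log2 -1.38, SE 0.08, adjusted p = 1.6e-06 in edgeR). Cd36 and Fabp4, both textbook PPAR targets that act in fatty acid uptake and transport, were lower, while the oxidation genes Cpt1a, Acaa2 and Acadl were higher, in the same libraries.

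**Figure D5:**
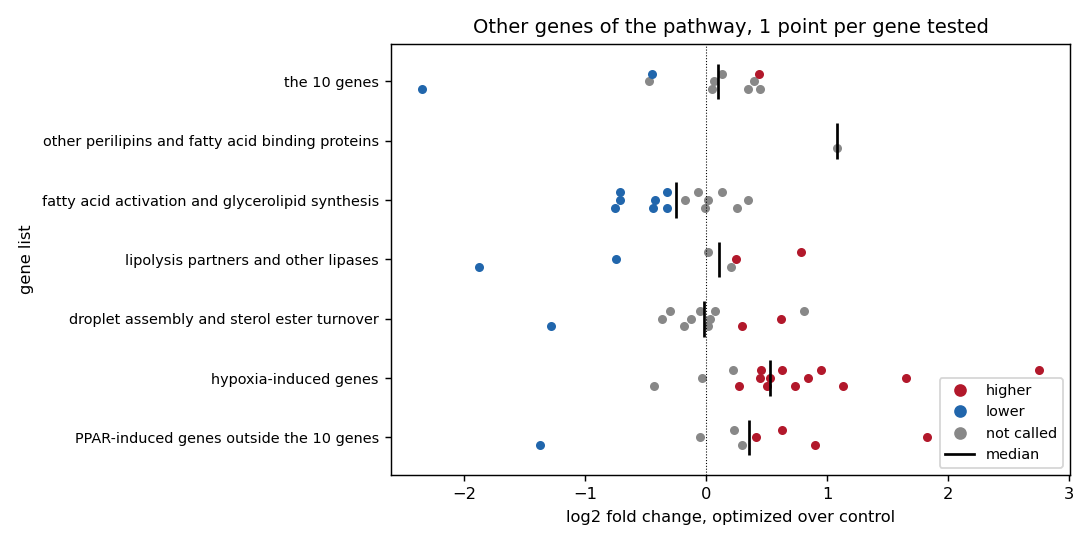
Log2 fold changes, optimized against control, of the tested genes in each related list, with genes past the adjusted threshold of 0.05 marked apart from the rest. The hypoxia-induced genes lie mostly above 0 and those of fatty acid activation and glycerolipid synthesis mostly below it.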

How the data were processed

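RNA from 6 cultures, 3 control and 3 optimized, was sequenced as paired-end reads. The authors aligned them with HISAT2 to mm39 and made counts per gene with featureCounts, which they deposited without normalization. A second deposited table gives FPKM for the same genes. Tool versions, the annotation, whether strand was used and how reads on several genes were treated are not given in the sources used here. Conditions and replicate numbers came from the labels.

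Conditions were compared on the counts with edgeR 4.0.16 (R 4.3.3), using filterByExpr, TMM factors and the quasi-likelihood test with no covariate. Benjamini-Hochberg adjustment ran over all 14618 genes kept, at a threshold of 0.05. Standard errors were derived from the F statistic. For log2 ratios, 0.5 was added to each count. The coefficient of variation between libraries was 0.13. No 2 libraries of a condition were alike within counting error.

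The 10 genes and all other lists were chosen with earlier results of these data known. From each other list, up to 3 called genes with the largest rise, up to 3 with the largest fall and the gene with the highest mean FPKM are named. Fabp7, the genes without enough counts, G0s2, Acadl and single cell type markers were named after their values were seen. No set test was run.

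Coordinates, overlapping exons and near-identical copies came from GENCODE M39 on GRCm39 (Python 3.11.15, blastn 2.17.0). For the overlaps, the exons of all transcripts of a gene were merged, and these can be longer than the gene model counted. Promoter sequences are from the RefSeq table built on GRCm38.p6, of which 8 windows of 250 bases for 6 genes matched 1 place each in GRCm39 exactly. Windows for Dgat1, Dgat2, Fabp4 and Fabp5 were not used here. Transcript lengths were taken from the ratio of counts to FPKM.

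The alternatives changed the scaling (relative log expression factors or the library size only), the tool (DESeq2 1.42.0, or limma 3.58.1 on FPKM with a pseudocount of 1 or 0.1, or restricted to a mean FPKM of 1 or more), the filter (none, or 10 counts in all libraries), added the replicate number as a block, or dropped a single library. Fold changes on the log2(value + pseudocount) scale understate differences of low genes. The main edgeR fit, DESeq2, and limma on scaled counts in place of FPKM were first tested on simulated counts, and the other steps were not.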

Additional observations from a re-analysis of the deposited data

How the results depend on the processing

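Fabp4 and Lipe were called, and lower, in each alternative run. Dgat1 was higher in each but lost its call in 7 of 15, and Plin2 and Fabp5 gained one in 3 and 5 of 15. Plin3, Pnpla2 and Fabp3, never called, changed sign in 3, 5 and 6 of 15. Each left-out library leaves its condition with 2. Dgat2 had the fewest counts of the 10 genes and the widest interval.

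With the replicate block, 5 of the 10 genes were called against 3, Plin2 (adjusted p = 0.023 in edgeR) and Fabp5 (0.0089) joining, and among the other perilipins and binding proteins 1 against 0. The same-numbered libraries correlated at 0.545, -0.068 and 0.333 in their deviations over 10484 genes, so the numbers are not taken to pair the samples, and control library 2 correlated best with optimized library 1 (0.059). All-gene calls were 4924 with the block against 4360.

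Among the other perilipins and binding proteins, DESeq2 called 1 and the fit without a filter 2. Leaving out 1 library gave 2 to 4 calls among the 10 genes, 0 to 1 among the other perilipins and binding proteins, 3 to 7 in fatty acid activation and glycerolipid synthesis, and 1 to 4 in droplet assembly. The causes were not tested. The 6 count ratios moved by less than the pooled SD of the 2 conditions in each alternative, but Dgat2 to Dgat1 took either sign (-0.15 to 0.21) when 1 library was left out, and Plin2 to Plin3 ran from 0.14 to 0.29.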
